A study of Mus musculus with 12 samples.

Results

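The set described here holds 10 genes grouped by their known place in the inhibitory control of B cells: Lilrb4a, Lilr4b, Cd22, Siglecg, Cd72, Fcgr2b, Btla, Pdcd1, Lag3 and Cd200. They were found as every noncontrol probe whose RefSeq accession maps to one of these symbols, which gave 13 of 55681 probes. Each gene is reported by its probe with the highest mean, so the set is 10 of the 22744 genes tested. The genes were chosen from earlier results on these same arrays, in which the differences between genotypes of Lilrb4a and Lilr4b stood out. Those differences are therefore given as descriptions without a test, and the p-values of the other genes are the values of a fit over all genes and not independent evidence.

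The arrays measured total RNA of follicular zone B cells purified from spleens of male C57BL/6J mice that were wild type (WT) or lacked Bach2 (Bach2-/-), a transcriptional repressor. Cells of each genotype were taken before stimulation (0 h) or after 24 h with 10 µg/mL of a Fab' anti-mouse IgM antibody, which engages the B cell receptor, and each of the 4 groups has 3 arrays. The series asks how B cells without Bach2 differ before and after that stimulus. The labels name no allele and do not say how many mice or cultures were used, so spread between arrays may be technical, and the p-values refer to that spread alone.

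Many inhibitory receptors of B cells, but not all products of this set, carry in their cytoplasmic tails short tyrosine motifs called ITIMs. Once phosphorylated, mostly by the kinase Lyn, these motifs bind the phosphatases encoded by Ptpn6 and Inpp5d, which damp signals of the B cell receptor. CD22, Siglec-G, CD72 and FcγRIIB are the classical brakes of resting B cells, while PD-1, encoded by Pdcd1, and Lag3 are best known from activated and exhausted T cells. Lilrb4a encodes the ITIM-bearing receptor gp49B, and its paralog Lilr4b encodes gp49A, which is closely related outside the cell but lacks the ITIMs. Cd200 encodes a surface ligand of an inhibitory receptor and is not itself such a receptor.

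Promoter sequences were taken from RefSeq for assembly GRCm38.p6, as windows of 250 bases before to 50 bases after the start of a gene. They hold 9 entries for 8 of the genes, and none was matched for Lilrb4a and Lag3. The 250 bases before the start are shown, 5′ to 3′ on the strand of the gene, for the gene of the matched ones that differed most between genotypes, Lilr4b on chr10:51480362-51480611 (plus strand), and for the one that changed most with stimulation, Pdcd1 on chr1:94052554-94052803 (minus strand).
Lilr4b: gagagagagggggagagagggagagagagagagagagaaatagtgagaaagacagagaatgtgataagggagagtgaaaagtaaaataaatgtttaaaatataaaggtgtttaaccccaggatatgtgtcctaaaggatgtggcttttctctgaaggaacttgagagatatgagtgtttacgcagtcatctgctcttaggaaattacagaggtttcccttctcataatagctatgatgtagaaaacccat
Pdcd1: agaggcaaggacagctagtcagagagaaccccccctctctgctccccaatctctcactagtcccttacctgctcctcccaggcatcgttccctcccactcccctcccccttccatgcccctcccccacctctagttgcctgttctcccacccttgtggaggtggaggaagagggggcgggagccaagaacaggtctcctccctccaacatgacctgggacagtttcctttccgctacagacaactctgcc
All letters are in lower case because neither word searched was found. The words were the AP-1-type site TGAGTCA with its complement TGACTCA, which covers both strands, and the MARE, the longer palindrome bound by BACH and small MAF dimers, which contains that site. The AP-1-type word was in 0 of the 9 entries and in 5.2% of all 32851 promoters of the same length. The MARE was in 0 of the 9 and in 0.00304% of all promoters. This says only that these letters are not in these windows. Lilr4b and Lilrb4a are next to each other on chromosome 10, with 0 annotated genes between them, and Btla and Cd200 lie on chromosome 16 with 2 genes between them, neither protein-coding.

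Signals are given as log2 of the processed signal relative to the 75th percentile of its array, so 0 is the level of that percentile. Array numbers are the replicate numbers of the labels. The 75th percentile itself ran from 97.3 to 358 intensity units, 50.9% to 66.7% of noncontrol spots were well above background on an array, and the number of arrays limits the precision. Array 1 of every group was on slide 2 (4 arrays) and arrays 2 and 3 on slide 1 (8 arrays). The reported Bach2 probe was at 3.06 to 3.79 on the WT arrays and at -1.01 to 1.11 on the Bach2-/- arrays, and a second Bach2 probe was below the well-above-background mark on all Bach2-/- arrays. Bach2-/- 0 h array 1 had 0 of 4 Y-linked genes well above background although its label says male, while every other array had 3 or 4. Bach2-/- 24 h array 2 was the dimmest array. All 8 B cell markers and the 4 measured follicular markers were well above background on every array.

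**Figure D1:**
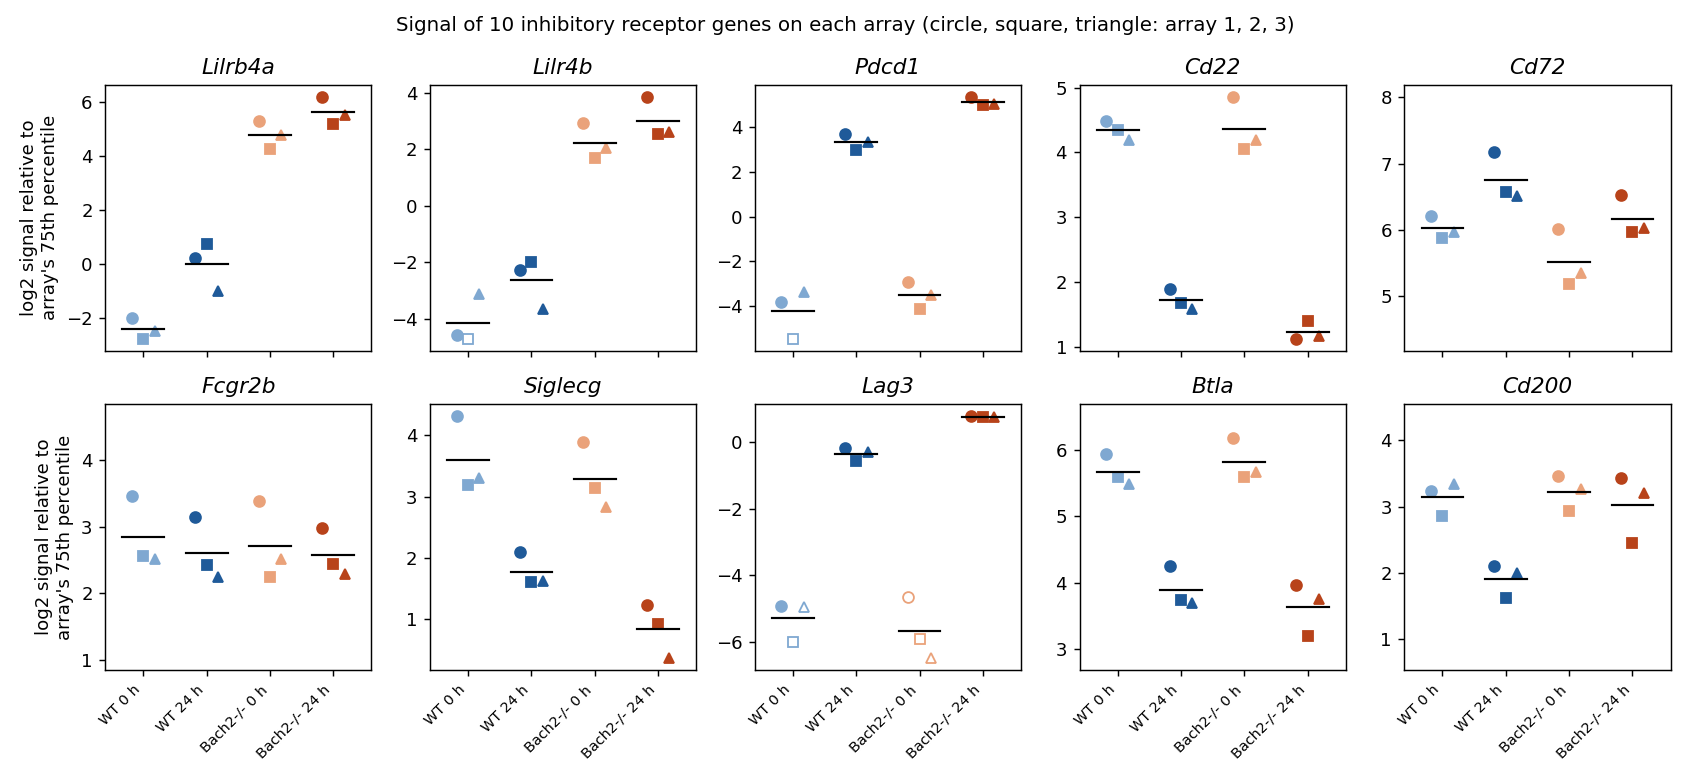
Each panel plots 1 gene: the vertical axis is the log2 signal relative to the 75th percentile of the array and the horizontal axis the 4 groups. Symbols are single arrays (circle, square and triangle for arrays 1, 2 and 3), open where the probe was not well above background, and black lines are group means. Lilrb4a and Lilr4b separate the genotypes at both times, Pdcd1 and Lag3 separate the times, and Fcgr2b lies at 2.24 to 3.46 throughout.

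The leukocyte immunoglobulin-like receptor genes Lilrb4a and Lilr4b had far more signal in Bach2-/- than in WT B cells, before and after stimulation. Before stimulation the log2 signal of Lilrb4a was -2.0, -2.75 and -2.45 on the WT arrays and 5.30, 4.24 and 4.79 on the Bach2-/- arrays. After 24 h it was 0.23, 0.76 and -0.98 in WT and 6.17, 5.18 and 5.52 in Bach2-/- cells. Every Bach2-/- array at either time was above every WT array at either time. The difference between genotypes was 7.18 ± 0.45 (SE, n = 3 arrays per group), or 145-fold, at 0 h and 5.62 ± 0.45, or 49.3-fold, at 24 h. Its second probe gave 5.97 ± 0.60 and 5.64 ± 0.60. With the normexp background correction, whose offset of 50 intensity units compresses dim signals, the difference at 0 h was 5.74, or 53.3-fold, and with the mean of both probes it was 6.57, or 95-fold.

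Lilr4b followed the same pattern. Its log2 signal at 0 h was -4.58, -4.69 and -3.10 in WT, where 2 of 3 arrays were well above background, and 2.92, 1.68 and 2.05 in Bach2-/- cells. At 24 h it was -2.27, -1.99 and -3.63 in WT and 3.84, 2.53 and 2.59 in Bach2-/- cells. The genotypes did not overlap, and the differences were 6.34 ± 0.57, or 81.1-fold, and 5.62 ± 0.57, or 49.1-fold. The size of these folds depends on how dim signals are treated: with normexp they were 14.6-fold at 0 h (3.87 on the log2 scale) and 16.4-fold at 24 h (4.04), and with a signal floor of 0.1 in place of 0.01 the fold at 0 h was 44.2. Without the array that lacked Y-linked signal, the differences at 0 h were 6.91 for Lilrb4a and 5.99 for Lilr4b. Both genes are paralogs with closely related products, so their probes may share signal. The values of the pair are therefore uncertain as separate measurements, and the sequences of the probes were not used here.

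Stimulation raised Lilrb4a in WT cells by 2.40 ± 0.45 (limma adjusted p = 0.0034), or 5.28-fold, with no overlap of the times. Its second probe gave 1.36 ± 0.60 (limma adjusted p = 0.13 over all kept probes), so the size of the rise depends on the probe, and with normexp the reported probe gave 1.44 (limma adjusted p = 0.026). Lilr4b in WT cells differed by 1.49 ± 0.57 (limma adjusted p = 0.088), and with the replicate number as a block it passed (limma adjusted p = 0.0473). It also passed in WT without WT 0 h array 3 (limma adjusted p = 0.043) or WT 24 h array 3 (limma adjusted p = 0.040), with values of 2.0 and 1.99. The same difference was 0.47 with normexp and 0.72 with the floor of 0.1, neither past the threshold. In Bach2-/- cells the same differences were 0.85 ± 0.45 for Lilrb4a and 0.77 ± 0.57 for Lilr4b, neither past the threshold. The response of Bach2-/- minus that of WT was -1.55 ± 0.64 for Lilrb4a (limma adjusted p = 0.57; -0.58 with normexp and -0.94 with the mean of both probes) and -0.72 ± 0.81 for Lilr4b (limma adjusted p = 0.89).

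The genes whose log2 signal was most like that of Lilrb4a over the 12 arrays were, among 22515 genes with a value on every array, Tbc1d9 (Pearson r 0.989), Slc39a4 (0.978), Smco4 (0.971), Ms4a7 (0.969) and Slc36a4 (0.966). Slc39a4 encodes a zinc importer, Slc36a4 an amino acid transporter and Ms4a7 a membrane protein best known from macrophages. Lilr4b itself had r 0.987. These coefficients describe 12 arrays that fall into genotype groups and share 2 slides. The signal of Lilrb4a over these arrays is mostly the difference between genotypes, so genes chosen for likeness to it differ between genotypes by that choice. As a description with no test, their differences were 1.14 (Slc36a4) to 4.82 (Slc39a4) at 0 h and 1.02 to 3.80 at 24 h.

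Because gp49 receptors are also known from myeloid cells, the markers of such cells are given beside these values. Of the macrophage and monocyte list, 11 of 13 genes were on the array and 8 were tested; Ms4a7 was higher in Bach2-/- cells at both times (3.16 and 2.71), Lyz2, a lysozyme, was higher at 24 h (2.81), and no other member passed. Of the list, Itgam, Csf1r, Adgre1, Ms4a7 and C1qb were well above background on all 12 arrays, and Lyz2 and Cd14 on 11. Vcam1 was so on 5, Mrc1 and C1qa on 2 each, and Fcgr1 on none. The summed level of the list is given in multiples of the 75th percentile. It was 26.9 to 65.7 at WT 0 h and 21.1 to 57.2 at Bach2-/- 0 h. At 24 h it was 12.4 to 29.5 in WT and 13.9 to 55.2 in Bach2-/- cells, so the sums of the genotypes overlapped. Itgam had the highest mean log2 signal of the list in every group and weighs most in this linear sum. Its mean was 5.33 at WT 0 h, 4.84 at Bach2-/- 0 h, 3.56 at WT 24 h and 3.98 at Bach2-/- 24 h. The overlap therefore describes mainly Itgam and not each gene of the list. None of the 7 tested neutrophil markers of 8 passed without a block, yet their median difference was 2.81 at 0 h and 3.02 at 24 h. With the replicate block 3 of them were higher at each time, beside 2.81% of all genes at 0 h and 8.13% at 24 h. At 0 h the summed level of 6 of these markers was 1.5 to 26.6 in WT and 25.9 to 48.7 in Bach2-/- cells, with overlap. At 24 h it was 0.66 to 9.08 in WT and 9.59 to 45.5 in Bach2-/- cells, without overlap. S100a9 had the highest mean of the 6 in every group and weighs most in this sum. The part of such cells in the signal of Lilrb4a and Lilr4b was not tested. In these bulk samples fewer cells of a type and less RNA per cell cannot be told apart.

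The sialic-acid-binding receptor genes Cd22 and Siglecg fell with stimulation in both genotypes. The log2 signal of Cd22 was 4.49, 4.35 and 4.20 in WT before and 1.90, 1.69 and 1.59 after stimulation. For Bach2-/- arrays it was 4.85, 4.06 and 4.19 before stimulation and 1.13, 1.40 and 1.17 after it. The times did not overlap in either genotype. Cd22 fell by 2.62 ± 0.24 in WT (limma adjusted p = 4.14e-05) and by 3.13 ± 0.24 in Bach2-/- cells (limma adjusted p = 7.89e-06). Between genotypes it differed by 0.021 ± 0.24 at 0 h and by -0.49 ± 0.24 at 24 h, where the arrays did not overlap but the fit did not pass (limma adjusted p = 0.43).

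Siglecg, which restrains B-1 cells in particular, was at 4.31, 3.18 and 3.31 in WT at 0 h and at 2.10, 1.61 and 1.61 at 24 h. The Bach2-/- arrays were at 3.90, 3.13 and 2.83 and then at 1.23, 0.92 and 0.37. It fell by 1.83 ± 0.38 in WT (limma adjusted p = 0.0058) and by 2.45 ± 0.38 in Bach2-/- cells (limma adjusted p = 0.0010). At 24 h every Bach2-/- array was below every WT array. That difference was -0.93 ± 0.38 and did not pass (limma adjusted p = 0.30), but passed with the replicate block (limma adjusted p = 0.0088). The second Siglecg probe gave -1.60 ± 0.38 at 24 h (limma adjusted p = 0.0505), and falls of 1.66 in WT and 3.05 in Bach2-/- cells.

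Cd72, a C-type lectin-like receptor, had a high signal in every group. It was at 6.22, 5.89 and 5.97 in WT at 0 h and 7.17, 6.57 and 6.52 at 24 h, and at 6.02, 5.19 and 5.35 and then 6.52, 5.96 and 6.03 in Bach2-/- cells. Array 1, on slide 2, was the highest of each group. The response was 0.73 ± 0.29 in WT (limma adjusted p = 0.098) and 0.65 ± 0.29 in Bach2-/- cells (limma adjusted p = 0.19). Both passed with the replicate block (limma adjusted p = 0.0018 and 0.0048) and on slide 1 alone (limma adjusted p = 0.043 and 0.030), and the second probe passed in WT (0.79 ± 0.26, limma adjusted p = 0.048). The genotypes differed by -0.50 ± 0.29 at 0 h and -0.58 ± 0.29 at 24 h (limma adjusted p = 0.43), the latter past the threshold with the replicate block (limma adjusted p = 0.020).

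Fcgr2b, the low-affinity IgG receptor that couples immune complexes to inhibition, passed in no comparison. Its signal was 3.46, 2.57 and 2.52 (WT 0 h), 3.15, 2.43 and 2.25 (WT 24 h), 3.39, 2.24 and 2.52 (Bach2-/- 0 h) and 2.98, 2.44 and 2.29 (Bach2-/- 24 h). Again array 1 was the highest of each group, and all groups overlapped. Its differences were between -0.24 and 0.092 with standard errors of 0.39 to 0.55, and a p that misses the threshold does not show that the levels were equal.

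Btla, an immunoglobulin-superfamily receptor of the herpesvirus entry mediator, fell with stimulation in both genotypes. Its signal was 5.94, 5.58 and 5.48 in WT at 0 h and 4.25, 3.74 and 3.69 at 24 h, and 6.18, 5.59 and 5.66 and then 3.97, 3.19 and 3.75 in Bach2-/- cells. The times did not overlap. On the log2 scale it fell by 1.78 ± 0.28 and by 2.17 ± 0.28 (limma adjusted p = 0.0012 in WT and 3.04e-04 in Bach2-/- cells). Between genotypes Btla differed by 0.14 ± 0.28 at 0 h and -0.25 ± 0.28 at 24 h, within the spread of the arrays.

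The checkpoint receptor genes Pdcd1 and Lag3 rose most with stimulation, from near background to a clear signal in both genotypes. Pdcd1 was at -3.83, -5.45 and -3.36 in WT at 0 h, where 2 of 3 arrays were well above background, and at 3.72, 2.97 and 3.32 at 24 h. The Bach2-/- arrays went from -2.93, -4.11 and -3.49 to 5.35, 4.99 and 5.05. It rose by 7.55 ± 0.49 in WT (limma adjusted p = 4.30e-06), or 187-fold, and by 8.64 ± 0.49 in Bach2-/- cells (limma adjusted p = 8.59e-07), or 399.6-fold. With normexp these rises were 27.8-fold (4.80 on the log2 scale) and 86-fold (6.43), and with the floor of 0.1 the rise in WT was 101-fold, so their size rests on the dim 0 h signals. At 24 h all 3 Bach2-/- arrays were above all 3 WT arrays. That difference was 1.79 ± 0.49, or 3.47-fold, and did not pass (limma adjusted p = 0.082), nor on slide 1 alone (limma adjusted p = 0.13). It passed with the replicate block (limma adjusted p = 0.0060) and in a fit of only the compared groups (limma adjusted p = 0.044). The slide block (limma adjusted p = 0.017), normexp (limma adjusted p = 0.0029) and the floor of 0.1 (limma adjusted p = 8.80e-04) also brought it past the threshold. At 0 h it was 0.70 ± 0.49 with overlap, and the responses differed by 1.09 ± 0.69 (limma adjusted p = 0.79).

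Lag3, whose product binds MHC class II, was at -4.93, -6.01 and -4.96 in WT at 0 h with 1 of 3 arrays well above background, and at -0.18, -0.58 and -0.28 at 24 h. The Bach2-/- arrays were at -4.67, -5.92 and -6.49, with 0 of 3 arrays well above background, and at 0.78, 0.77 and 0.76 at 24 h. It rose in WT by 4.95 ± 0.43 (limma adjusted p = 2.65e-05). In Bach2-/- cells it rose at least 47.7-fold under the main processing (limma adjusted p = 2.61e-06), and the measured means were -5.69 and 0.77. In this bound a dim array counts at the level of the dimmest probe flagged well above background on it. Where the gene's own probe is higher, that level counts. Every fold given here as at least a value is such a bound, and it can be smaller under other processing. With the same treatment of the 2 dim WT arrays, computed after these values were seen, the rise in WT was 19.4-fold. Normexp gave 3.58-fold in WT and 6.13-fold in Bach2-/- cells, and the floor of 0.1 gave 7.85-fold and 17.1-fold; both rises passed under either setting. At 24 h the genotypes did not overlap and differed by 1.12 ± 0.43 (limma adjusted p = 0.26). That difference passed with the replicate block (limma adjusted p = 0.0494), the slide block (limma adjusted p = 0.0485) and normexp (limma adjusted p = 0.044). It also passed with the floor of 0.1 (limma adjusted p = 2.01e-04), but not on slide 1 alone (limma adjusted p = 0.12). The responses differed by 1.51 ± 0.61 (limma adjusted p = 0.56), a value that rests on 0 h signals near or below background and was 0.77 with normexp.

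Because Pdcd1 and Lag3 are also genes of T cells, the T cell markers are given beside them. All 10 were tested, and none was lower in Bach2-/- cells at 24 h. There 4 were higher (Cd8b1 1.37, Cd28 1.41, Icos 1.86 and Thy1 1.73), beside 2.26% of all genes. With the replicate block 6 were higher, beside 8.13% of all genes. The median difference of the 10 markers was 1.04 at 24 h and -0.079 at 0 h, beside 1.79 for Pdcd1 and 1.12 for Lag3 at 24 h. Icos had 1 of 3 WT 24 h arrays well above background. The summed T cell level was 11.2 to 30.5 at WT 0 h and 10.4 to 17.8 at WT 24 h. For Bach2-/- it was 16.2 to 26.4 and then 11 to 28.9, so it overlapped between times and between genotypes. Cd4 and Cd3e had the highest mean signals of the list in every group and weigh most in this linear sum. None of the 10 rose with stimulation in either genotype. In WT 4 fell (6 with the replicate block), beside 9.38% of all genes (19.4% with the block). The median difference of their responses, Bach2-/- minus WT, was 1.16, beside 1.09 for Pdcd1 and 1.51 for Lag3; none of the markers passed that test, and with the replicate block Thy1 did. The part of T cells in the values of Pdcd1 and Lag3 was not tested.

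Cd200 fell with stimulation in WT and not past the threshold in Bach2-/- cells. Its signal was 3.24, 2.85 and 3.34 in WT at 0 h and 2.11, 1.62 and 2.0 at 24 h, and 3.46, 2.93 and 3.26 and then 3.43, 2.45 and 3.20 in Bach2-/- cells. WT 24 h was below every other group without overlap. In WT it fell by 1.24 ± 0.29 (limma adjusted p = 0.011), and without WT 0 h array 3 the same fall of 1.14 was just short of the threshold (limma adjusted p = 0.052). In Bach2-/- cells the difference was -0.19 ± 0.29 (limma adjusted p = 0.82). The difference of the responses was 1.05 ± 0.41 (limma adjusted p = 0.55), and with the replicate block it passed (limma adjusted p = 0.028). At 24 h the genotypes differed by 1.12 ± 0.29 (limma adjusted p = 0.071). That difference passed with the replicate block (limma adjusted p = 0.0012) and without Bach2-/- 24 h array 2, where it was 1.41 (limma adjusted p = 0.019). It also passed with the slide block (limma adjusted p = 0.0095) and quantile normalization (limma adjusted p = 0.0077), but not on slide 1 alone (limma adjusted p = 0.13).

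**Figure D2:**
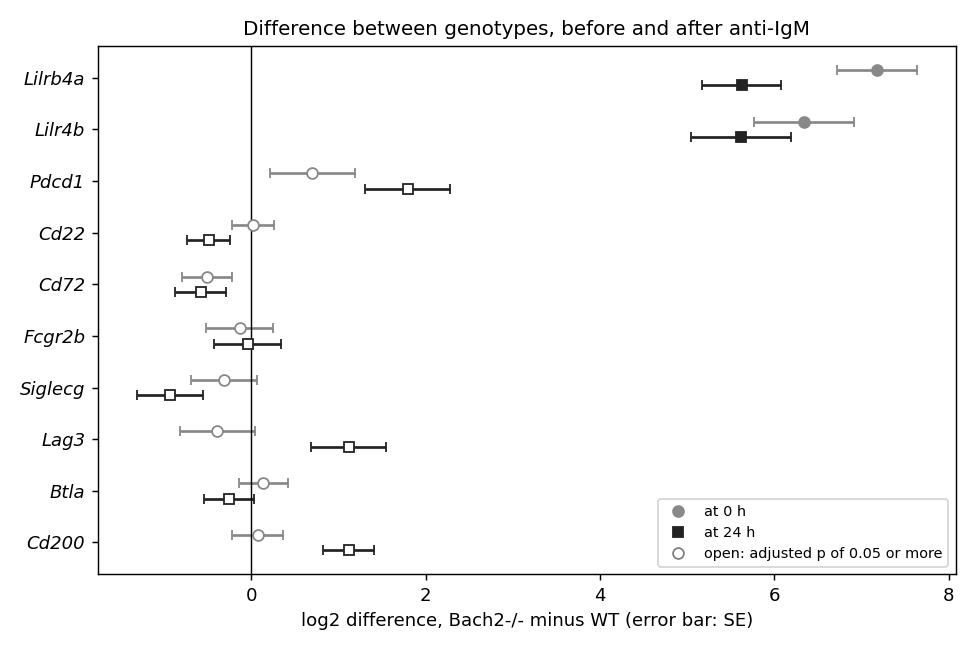
The horizontal axis is the log2 difference between genotypes, Bach2-/- minus WT, for the 10 genes (vertical axis) at 0 h (circles) and 24 h (squares); bars are standard errors and open symbols mark an adjusted p of 0.05 or more without a block. Lilrb4a and Lilr4b lie at 5.62 to 7.18, and the other 8 genes between -0.93 and 1.79.

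Counted over the set, 2 of the 10 genes passed at 0 h, both higher in Bach2-/- cells and none lower. Of all genes 0.629% were higher and 0.119% lower at that threshold, a limma adjusted p under 0.05. At 24 h 2 passed, both higher, against 2.26% of all genes higher and 0.945% lower. Since Lilrb4a and Lilr4b were chosen on these contrasts, nothing is read from these 2 counts. The same holds for every count or median between genotypes that includes them, with a block or under other alternatives. With the replicate block the count at 0 h was the same 2 genes (2.81% of all genes higher, 0.919% lower). At 24 h the block gave 5 higher (Lilrb4a, Lilr4b, Pdcd1, Lag3 and Cd200) and 2 lower (Cd72 and Siglecg), beside 8.13% of all genes higher and 11.5% lower. The median difference of the 10 was 0.047 at 0 h and 0.54 at 24 h, and that of all genes 0.028 and -0.055.

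**Figure D3:**
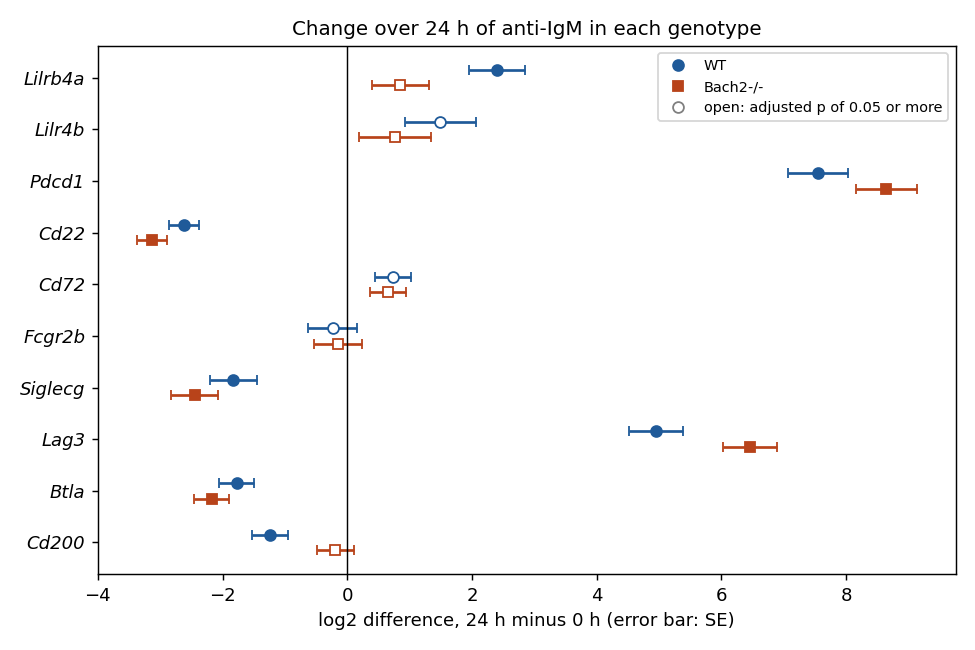
The horizontal axis is the log2 difference between 24 h and 0 h for the 10 genes (vertical axis) in WT (circles) and Bach2-/- cells (squares); bars are standard errors and open symbols mark an adjusted p of 0.05 or more without a block. Pdcd1 and Lag3 lie at 4.95 to 8.64 and Cd22, Siglecg and Btla at -3.13 to -1.78 in both genotypes.

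With stimulation 7 of the 10 genes passed in WT: Pdcd1, Lag3 and Lilrb4a higher, and Cd22, Siglecg, Btla and Cd200 lower. Of all genes 12.5% were higher and 9.38% lower. Among the responses of Bach2-/- cells 5 passed, Pdcd1 and Lag3 higher and Cd22, Siglecg and Btla lower, against 5.92% and 8.11% of all genes. With the replicate block 5 were higher and 4 lower in WT (27.9% and 19.4% of all genes), and 3 were higher and 3 lower in Bach2-/- cells (17% and 16.9%). The median response was 0.25 in each genotype, near 0 because the set moved both ways, and that of all genes 0.041 and 0.073. Each response shares arrays with both contrasts between genotypes.

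The response of the 10 genes did not differ past the threshold between genotypes in the limma fit without a block. None of the 10 passed, beside 0.259% of all genes higher and 0.0835% lower. With the replicate block Cd200 passed, beside 1.9% of all genes higher and 3.19% lower. With the floor of 0.1, Pdcd1 (1.66, limma adjusted p = 0.024) and Lag3 (1.12, limma adjusted p = 0.0038) passed, against 1.09 and 1.51 in the main fit. That floor sets all Lag3 signals at 0 h to the same level, where the genotypes then differed by 0. It does the same to the Pdcd1 signals at WT 0 h. The spread between those arrays is thereby removed, so no difference of responses is read from these 2 values.

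Genes around these receptors were described by lists, whose counts stand beside these shares of all genes. Between genotypes 0.629% were higher and 0.119% lower at 0 h, and 2.26% and 0.945% at 24 h. With the replicate block these were 2.81% and 0.919%, and 8.13% and 11.5%. With stimulation 12.5% were higher and 9.38% lower in WT, and 5.92% and 8.11% in Bach2-/- cells. With the block these were 27.9% and 19.4%, and 17% and 16.9%. Counts near these shares are not read as results about a list. Of 24 other inhibitory receptor genes, 17 were tested, and 0 passed at 0 h without a block. At 24 h 3 were higher in Bach2-/- cells and none lower. Ctla4, a receptor that competes for B7 ligands, was at least 2.56-fold higher (limma adjusted p = 0.0064) with no WT 24 h array well above background. Siglecf, another sialic-acid-binding receptor, was higher by 1.67 ± 0.23 (limma adjusted p = 0.0018), and Cd5, which marks B-1 cells, by 1.63 ± 0.33 (limma adjusted p = 0.020). Ctla4 and Cd5 are also genes of T cells, whose markers are given with Pdcd1 and Lag3. The part of T cells in the values of Ctla4 and Cd5 was not tested. Siglecf rose with stimulation at least 17.6-fold in WT and at least 56.9-fold in Bach2-/- cells, and Sirpa, the receptor of CD47, by 3.82 and 3.43. The paired immunoglobulin-like receptor gene Pirb fell by 2.48 in WT, and Pecam1 fell by 2.02; in Bach2-/- cells Pirb fell by 2.78 and Pecam1 fell by 1.92. In all, 2 were higher and 3 lower in WT, and 4 higher and 2 lower in Bach2-/- cells; with the replicate block the counts were 5 and 5, and 5 and 4. Fcrl1 also fell in WT (-0.86), and Ctla4 (at least 3.33-fold) and Cd5 (2.01) rose in Bach2-/- cells.

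Of 18 phosphatase, kinase and adaptor genes that act on or through inhibitory motifs, all were tested. Ptpn22, a phosphatase that acts on antigen receptor kinases, was higher in Bach2-/- cells by 2.24 ± 0.23 at 0 h (limma adjusted p = 0.0010) and by 2.79 ± 0.23 at 24 h (limma adjusted p = 6.97e-05), the only member past the threshold at 0 h without a block. At 24 h Ubash3a was at least 2.12-fold higher and Dok2, an adaptor, higher by 1.13 ± 0.27 (limma adjusted p = 0.0496). The ubiquitin ligase gene Cblb was lower by 2.07 ± 0.19 on the log2 scale and the receptor phosphatase gene Ptprj by 1.53 ± 0.24 at 24 h. Ptpn6 and Inpp5d, the phosphatases recruited by the ITIMs, passed in neither contrast between genotypes, with or without the replicate block. With the block 2 genes were higher and 1 lower at 0 h, and 4 and 4 at 24 h. In response to stimulation 0 were higher and 5 lower in WT, and 1 higher and 4 lower in Bach2-/- cells; Lyn differed by -1.03 in WT and -1.81 in Bach2-/- cells and Cblb by -0.92 and -2.08.

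Of 9 ligands and ligand-making enzymes of the receptors, all were tested. St6gal1, whose enzyme makes the sialylated glycan that CD22 binds, was higher in Bach2-/- cells by 1.31 ± 0.26 at 0 h (limma adjusted p = 0.049) and by 2.42 ± 0.26 at 24 h (limma adjusted p = 3.77e-04). At 24 h Lgals3, encoding galectin-3, a ligand of Lag3, was higher by 3.76 ± 0.27 (limma adjusted p = 2.95e-05), and Cd200r1, the receptor of CD200, was at least 4.31-fold higher. None was lower, and with the replicate block 3 were higher at 0 h and 5 at 24 h. With stimulation 7 fell in WT, Lgals3 (-2.93), Cmah (-2.70), Fgl1 (-2.03) and St6gal1 (-1.72) the most, and none rose. After stimulation of Bach2-/- cells Cd274, which encodes the PD-1 ligand PD-L1, fell (-2.43), as did Cmah (-2.08), Fgl1 (-2.07) and Sema4d, the ligand of CD72 (-1.46), while Cd200r1 rose (limma adjusted p = 0.0018). At Bach2-/- 0 h 1 of 3 arrays was well above background for Cd200r1, and with the dim arrays raised as for Lag3 its rise was 4.92-fold.

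Of 9 activating coreceptor and receptor chain genes, 1 was higher and 1 lower in Bach2-/- cells at 24 h, and none passed at 0 h. Fcer1g, the ITAM-bearing Fc receptor gamma chain, was higher by 4.53 ± 0.31 (limma adjusted p = 1.86e-05) and Cr2, the complement coreceptor, lower by 2.06 ± 0.25 on the log2 scale (limma adjusted p = 7.66e-04). With the replicate block 2 were higher and 1 lower at 0 h, and 2 higher and 3 lower at 24 h. With stimulation 5 fell in WT and 7 in Bach2-/- cells, among them Cr2 (-3.99 and -5.00), Cd38 (-1.88 and -2.68) and Cd79a (-1.66 and -1.77), and Fcer1g rose in Bach2-/- cells (3.53).

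**Figure D4:**
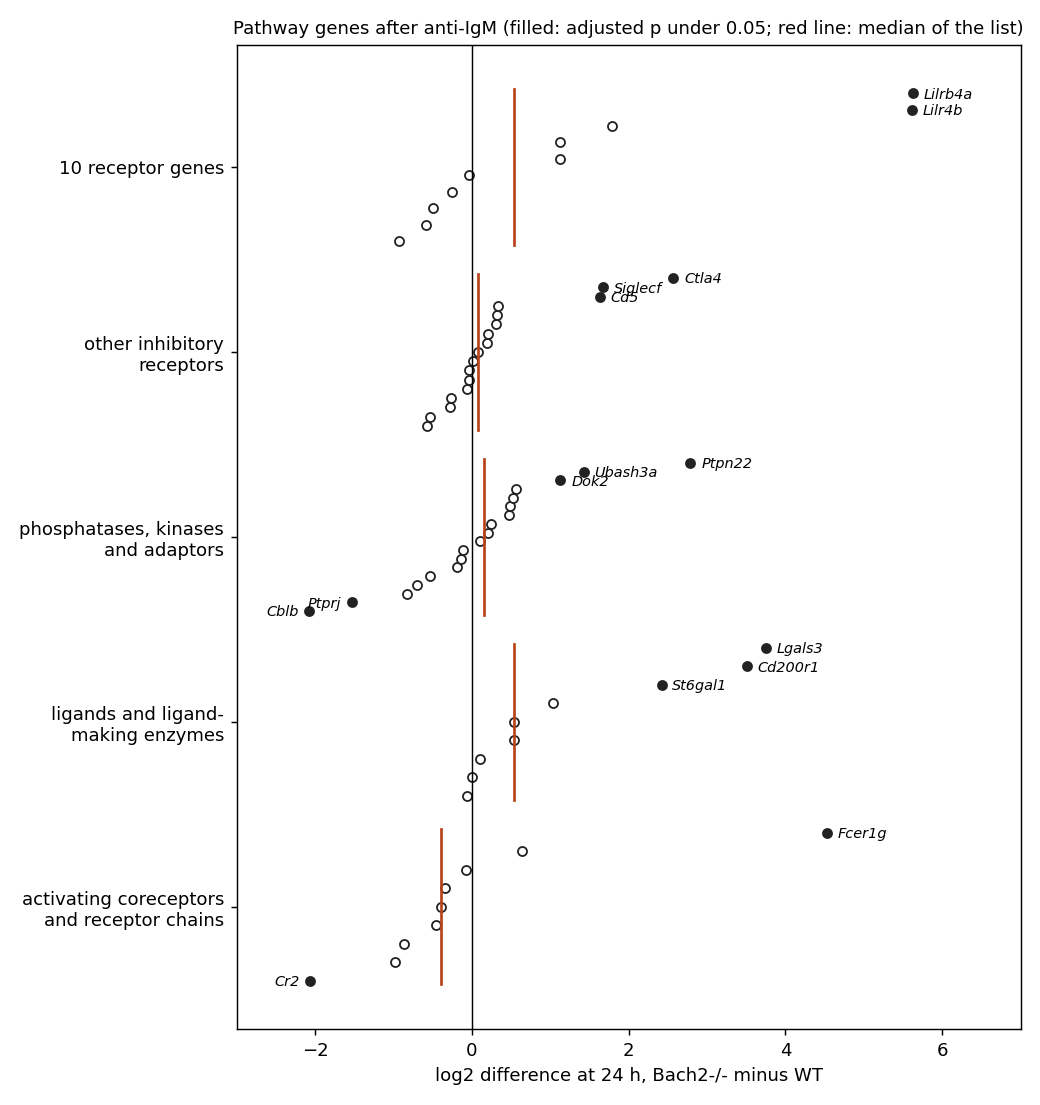
The horizontal axis is the log2 difference at 24 h, Bach2-/- minus WT, for each tested gene of the 10 receptor genes and of 4 related lists (vertical axis). Filled, named points passed at an adjusted p under 0.05 without a block and red lines are list medians, 0.54 for the 10 genes, 0.079 for the other inhibitory receptors and -0.40 for the activating genes.

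Markers of other B cell states also differed between genotypes, and the shares of all genes given with the lists stand beside their counts. Of 5 B-1 markers 3 were higher in Bach2-/- cells at each time, Spn, Bhlhe41 and Ahr at 0 h and Spn, Bhlhe41 and Cd5 at 24 h. Cd5 is also a gene of T cells, and their part in its value was not tested. Of 5 tested plasma cell markers 1 was higher at 0 h and 2 at 24 h, and none was lower; the medians were 0.28 and 0.94. Prdm1, the repressor that drives plasma cell differentiation, was higher by 3.38 at 0 h and 4.94 at 24 h, and Jchain, the joining chain of secreted antibodies, by 3.43 at 24 h. Of 6 marginal zone markers S1pr3 and Cd9 were higher at both times, and Cr2 and Dtx1 were lower at 24 h. The 8 B cell markers passed in neither contrast between genotypes without a block. With the replicate block 4 were lower in Bach2-/- cells at 24 h (Cd79b, Ms4a1, Pax5 and Ebf1). The median difference of all 8 at 24 h was -0.60. The means of Blk (2.80 in WT, 3.12 in Bach2-/- cells) and Cd37 (5.39 and 5.60) went the other way. The summed level of the 8 at 24 h was 438 to 782 in WT and 255 to 411 in Bach2-/- cells, without overlap. Cd79b (8.29 in WT, 7.43 in Bach2-/- cells) and Ms4a1 (7.04 and 5.88) had the highest means at 24 h. They weigh most in this linear sum, so it does not stand for each of the 8. Of the 4 measured follicular markers Ccr7 was lower at 24 h (-1.64), and with the block also Cxcr5. With stimulation 6 of the 8 fell in WT and 7 in Bach2-/- cells, as did Cd22, Siglecg and Btla. The part of cell state or of the mixture of B cell subsets in the values of the 10 genes was not tested.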

How the data were processed

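Per the labels, 12 Cy3 arrays of total RNA form 4 groups of 3. Per the submitters' processing notes, the authors read the scans with Agilent Feature Extraction 10.7.3.1. The processed signal used here is an intensity, background-subtracted and detrended per the file headers. The value table deposited for all samples is on the log2 scale. Set against the scanner signals, its columns hold that signal on the log2 scale, scaled by the 75th percentile of the array and centred per probe (r 0.9991 to 0.9998); the order of these steps stays unknown, and its column medians were -0.039, 0.16 and 0.014 (WT 0 h), -0.27, 0.11 and 0.011 (WT 24 h), -0.26, -0.097 and -0.031 (Bach2-/- 0 h) and -0.27, 0.49 and 0.071 (Bach2-/- 24 h).

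Control spots and outlier-flagged spots (112 to 511 per array) were left out, and no noncontrol spot was saturated. The remaining spots of a probe were averaged, and the average was divided by the 75th percentile of the array, floored at 0.01 and taken to log2. That percentile was taken over all noncontrol spots, outlier-flagged ones included. The filter kept 30735 of 55681 probes, those flagged well above background on each of the 3 arrays of some group. A gene is its kept probe with the highest mean. RefSeq accessions named 26413 probes through a table of assembly GRCm38.p6; the others kept the name of the array design. A limma model (limma 3.58.1 in R 4.3.3) with 1 mean per group took in all 12 arrays, with empirical Bayes variances and Benjamini-Hochberg adjustment over 22744 genes, 2-sided, threshold 0.05; the script was tested on simulated data. The labels number the replicates. After group means were subtracted, arrays with the same number correlated at 0.47 to 0.89 (18 pairs). Other pairs correlated at -0.82 to -0.42 on different slides (24 pairs) and at 0.25 to 0.64 on the same slide (12 pairs). The ranges on the same slide overlap, and number 1 was alone on slide 2 in every group. Bach2-/- array 1 had 0 of 4 Y-linked genes well above background at 0 h and 4 of 4 at 24 h. Cells of the same mice would not differ so between times, so this number did not pair those samples by mouse. Whether the other numbers pair the samples is not settled by these values. The replicate block is therefore an alternative to the main fit, which has no block. The most alike arrays of 1 group had r 0.994.

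The members and the lists were chosen with earlier results of these data known. Named were the 10 genes, the genes of each list past the test (at most 4 per list and comparison, by size), the 5 genes most like Lilrb4a, and Bach2. Marker lists also covered NK, dendritic, and mast cells and basophils: in the contrasts between genotypes Flt3 was lower and Itgax higher at 24 h, and no NK, mast cell or basophil marker passed. Alternatives were other normalization, background correction, floor, filter, probe choice, blocks, samples and the deposited table. The correction by normexp used the median signal and median background, intensities per the file headers.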

Additional observations from a re-analysis of the deposited data

Results flagged for a closer look

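For 3 genes of the related lists the change over 24 h differed between genotypes by the limma test of that difference. Siglecf rose more in Bach2-/- cells, by 1.83 ± 0.32 (limma adjusted p = 0.040), but its 0 h signal was not well above background in either genotype. Lgals3 fell in WT by 2.93 and differed by -0.18 in Bach2-/- cells, a difference of responses of 2.75 ± 0.39 (limma adjusted p = 0.012). Fcer1g rose in Bach2-/- cells by 3.53 and differed by 0.48 in WT, a difference of responses of 3.05 ± 0.44 (limma adjusted p = 0.014). None of the 10 receptor genes did so without a block. With the replicate block 3 of the other inhibitory receptor genes passed (Siglecf, Ctla4 and Cd5), 2 phosphatase and adaptor genes (Cblb and Ptprj), 4 ligand genes (Lgals3, Cd200r1, St6gal1 and Cd274) and 5 activating genes (Fcer1g, Cr2, Cd79b, Cd38 and Tyrobp), as did Cd200 of the 10. Of all genes 5.09% passed that test with the block and 0.343% without it.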

How the results depend on the processing

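Of 985 single-gene values under alternatives, 909 kept their direction and side of the threshold, 31 newly passed, 1 no longer passed (Cd200, above) and 44 changed sign. The signs of all differences past the threshold held. At 24 h the number of the 10 genes that differed between genotypes was 2 in the main fit (3.21% of all genes passed). It was 4 with normexp (1.52%) and 4 with a floor of 0.1 (3.59%), in both cases with Pdcd1 and Lag3 added. With the replicate block it was 7 (19.6%), and with the slide block 7 (15.8%). With only probes well above background on all 12 arrays it was 1 (2.26%). That stricter filter removed genes and left 1 at 0 h and 3 for the response in Bach2-/- cells, against 2 and 5 (0.475% and 13.2% of all genes). Each count between genotypes includes Lilrb4a, which was chosen on these contrasts, so nothing is read from these counts. The response difference gave 2 with the floor of 0.1 (0.985%) and 1 with the replicate block (5.09%), against 0 (0.343%). With 1 array left out, the counts were 2 to 2 (0 h), 2 to 3 (24 h), 7 to 8 (response in WT), 5 to 5 (response in Bach2-/- cells) and 0 to 0 (response difference). The replicate block changed no call of the 10 genes besides those given above.

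Values that changed sign were small. At 0 h Cd22 was -0.092 (quantile), -0.016 (normexp), -0.15 (slide 1 alone) and -0.22 (both doubted arrays, those without Y-linked signal and with the dimmest signal, left out). At 0 h Cd200 was -0.030 (quantile), -0.0037 (slide 1) and -0.050 (doubted arrays), Btla -0.044 (doubted arrays), and Lag3 0.052 (normexp) and 0 (floor of 0.1). At 24 h Fcgr2b was 0.13 (quantile), 0.025 (slide 1) and 0.024 (doubted arrays). Without the doubted arrays the response in Bach2-/- cells was 0.26 for Fcgr2b and 0.22 for Cd200. The response difference of Cd72 was 0.30 (quantile), 0.11 (slide 1) and 0.28 (doubted arrays), of Btla 0.012 (doubted arrays), and of Lilr4b 0.17 (normexp) and 0.049 (floor of 0.1). The cause was not tested.

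With 1 array left out, the values that could change sign ranged from -0.22 to 0.18 (Cd22), -0.47 to 0.17 (Fcgr2b), -0.62 to 0.041 (Siglecg), -0.90 to 0.0093 (Lag3), -0.044 to 0.28 (Btla) and -0.072 to 0.22 (Cd200) at 0 h. They ranged from -0.25 to 0.23 for Fcgr2b at 24 h. The responses ranged from -0.51 to 0.068 for Fcgr2b in WT, and from -0.38 to 0.19 for Fcgr2b and -0.39 to 0.10 for Cd200 in Bach2-/- cells. The response difference ranged from -0.25 to 0.17 for Cd72 and -0.21 to 0.43 for Fcgr2b.

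No filter on dim probes moved the median of all genes at 24 h from -0.055 to 0.13. Signals of Pdcd1 and Lag3 at 0 h and of Lilr4b in WT lie near background, and their folds under normexp and the floor of 0.1 are given beside them.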

Other observations

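Over the 12 arrays 5 of the 10 genes followed stimulation in opposite ways. Pdcd1 and Lag3 had Pearson r 0.988 with each other, and Pdcd1 had -0.97 with Cd22, -0.94 with Btla and -0.90 with Siglecg. With the other members Pdcd1 had r between -0.44 (Cd200) and 0.61 (Cd72). Within groups, where only the deviations of arrays from their group means enter, Cd72 and Fcgr2b had r 0.94, Siglecg and Fcgr2b 0.90, and Cd72 and Btla 0.90. These coefficients describe 12 arrays that share groups and slides, and array 1, on slide 2, was the highest of every group for Cd72 and Fcgr2b.

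Of 6 tested markers of NK cells, 3 fell with stimulation in WT (Gzma, Klrb1c and Klrd1) and 4 in Bach2-/- cells (those and Gzmb), beside 9.38% and 8.11% of all genes, and none rose. Gzma, which encodes a granzyme, fell by 3.21 in WT and by 3.22 in Bach2-/- cells. Klrb1c fell at least 2.88-fold and at least 2.24-fold, and Klrd1 at least 4.41-fold and at least 2.46-fold, with no 24 h array well above background. Prf1 and Nkg7 differed by 0.074 and -0.11 in WT and by -0.046 and -0.11 in Bach2-/- cells, and passed in neither.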
